A study of Mus musculus with 6 samples.

Results

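The genes described here are the protein-coding genes of the mouse replication-dependent histone clusters, measured in poly(A)-selected RNA of epiphyseal chondrocytes, the cartilage cells at the ends of growing bones. They were taken by name: every protein-coding row of the deposited gene table whose symbol begins with Hist1h, Hist2h, Hist3h or Hist4h. This gave 68 genes among 43346 listed genes, of which 22032 are protein-coding. They comprise 6 genes for the linker histone H1, 19 for H2A, 18 for H2B, 12 for H3 and 13 for H4. By cluster name, 55 belong to Hist1 on chromosome 13, 10 to Hist2 on chromosome 3, 2 to Hist3 on chromosome 11 and 1 to Hist4 on chromosome 6. Hist1h2al lies apart from the other Hist1 members, at chr13:51202688-51203065. The GENCODE M21 annotation types it as a processed pseudogene, and Hist2h2bb as a long intergenic noncoding RNA.

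The study set primary chondrocytes of Girk3-null mice (Girk3-/-; the gene is listed as Kcnj9 and encodes a subunit of a G protein-gated inward rectifier potassium channel) against those of wild-type (WT) mice. Each genotype had 3 libraries. All 6 libraries came from mice on the C57BL/6 background at age 5 days, whose epiphyseal cartilage was digested with collagenase II, and no agent was given to either group. The labels name no Cre driver, and in bulk RNA of such a digest fewer cells of a type and less RNA per cell cannot be told apart.

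A replication-dependent histone gene is transcribed in S phase, when new DNA is packed into nucleosomes. Its messenger RNA normally ends just after a short hairpin, the stem-loop, which is bound by the stem-loop binding protein Slbp, and carries no poly(A) tail. Cells that leave the cycle, as maturing chondrocytes do, can make polyadenylated forms of some of these genes from signals further downstream. Because the RNA was selected with oligo dT, the counts report polyadenylated forms and carry-over of tail-less RNA, and not the full histone messenger RNA of these cells; these 2 sources cannot be told apart in the counts.

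The stem-loop was searched for in the GENCODE M21 transcript models (mm10) as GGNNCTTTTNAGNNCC, on the transcript strand, in the 64 members with a protein-coding model there. It was found in 42 of them, in 6 spellings, each with a stem that pairs fully, and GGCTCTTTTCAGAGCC was the spelling in 24 members. The sites of the linker, H2A, H4, H2B and H3 members highest by RPKM among those that hold one, and of Hist1h2ac, are shown because the same hairpin stands in genes whose levels differ by more than an order of magnitude. Capitals mark the stem-loop, each with its flanks 5′ to 3′.
Hist1h1c: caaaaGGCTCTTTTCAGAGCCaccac
Hist3h2a: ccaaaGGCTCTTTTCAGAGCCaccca
Hist1h4i: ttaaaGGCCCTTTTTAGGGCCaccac
Hist1h2bg: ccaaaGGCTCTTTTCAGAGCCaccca
Hist2h3c1: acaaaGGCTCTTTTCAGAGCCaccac
Hist1h2ac: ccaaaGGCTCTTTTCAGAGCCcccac
Their positions are chr13:23739507-23739532 (plus strand) for Hist1h1c, chr11:58955167-58955192 (plus) for Hist3h2a, chr13:22040961-22040986 (minus) for Hist1h4i, chr13:23571838-23571863 (plus) for Hist1h2bg, chr3:96247322-96247347 (plus) for Hist2h3c1 and chr13:23683472-23683497 (minus) for Hist1h2ac. In all 6 the site lies in the 3′ UTR, after the stop codon. The hairpin begins 24 bases after the stop codon in Hist1h1c and 41 bases after it in Hist3h2a.

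What follows the hairpin differs between members. The Hist1h1c model runs 840 bases past its stem-loop and the Hist3h2a model 1643 bases, and each closes with a polyadenylation signal, the hexamer that directs cleavage and tailing of ordinary messenger RNA. The search was for AATAAA or ATTAAA in the last 40 bases of the model, and the hexamer is in capitals in the sites below, which are shown because they end the models of 4 of the members with the most counts.
Hist1h1c: ttctAATAAAaagcgtttagttttcattca
Hist3h2a: atgcccAATAAAataagagtacgtgtataa
Hist1h4i: tctgtttacATTAAAagtattctatgctaa
Hist2h2be: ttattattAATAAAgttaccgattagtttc
These lie at chr13:23740338-23740367 (plus), chr11:58956791-58956820 (plus), chr13:22040636-22040665 (minus) and chr3:96223709-96223738 (plus), in the order given, at the far end of each 3′ UTR.

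Summed over the 68 members, the libraries held 3168, 3996 and 3709 counts in Girk3-null chondrocytes and 3016, 4154 and 3725 counts in WT chondrocytes. That is between 0.00525% and 0.0108% of a library, out of totals that ran from 34279516 to 60392837 counts. Replication-dependent histone genes were thus a very small share of this RNA in both genotypes. Between 43 and 51 members had a count in any 1 library, 38 members had under 20 counts over all 6 libraries, and 12 had 100 or more.

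A single linker histone gene made up most of the signal. Hist1h1c, which encodes a somatic H1 that binds the DNA between nucleosomes, had 13191 of the 21768 member counts, and between 56.7% and 63.7% of the member counts in each library. Hist1h2bc, an H2B gene, followed with 3339 counts, Hist3h2a, an H2A gene, with 1327, Hist1h4i, an H4 gene, with 739, and Hist2h2be, an H2B gene, with 507. Per length (the deposited RPKM, averaged over the 6 libraries), Hist1h1c stood at 31.7 and Hist1h2bc at 17.1, then Hist1h4i at 3.75 and Hist3h2a at 2.23. Only 7 members averaged 1 RPKM or more and 2 averaged 10 or more.

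The members with no count lay at the other end. Hist1h3h, Hist1h2ao, Hist1h2ag, Hist1h2ba, Hist1h2aa and Hist1h2al were at 0 in all 6 libraries. For counting error only, this allows up to 3 counts in each, or 0.0497 to 0.0875 CPM (counts scaled per library size) depending on the library. Of their stretches of 50 bases, Hist1h3h shares 93.9%, Hist1h2ao 93.5%, Hist1h2ag 78.9% and Hist1h2al 67.6% with other members. Hist1h2ba shares 38.2% and Hist1h2aa 2.3%. A 0 in near-copies also depends on how reads that fit several copies were treated, which is not known. Hist1h2ba and Hist1h2aa encode the testis-specific H2B and H2A. Hist1h1t, the testis-specific linker histone, had 0.0169, 0 and 0.0624 CPM, here and below TMM-scaled, in Girk3-null libraries and 0.0635, 0 and 0.0488 CPM in WT libraries, at or near the level of a single read. Hist1h1a, another linker histone gene, was also near 0, with 0.101, 0.0458 and 0 CPM in Girk3-null libraries and 0.0212, 0.202 and 0.0488 CPM in WT libraries; the 2 groups overlapped for both genes.

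Levels were described by the 3′ end of the annotated model. The 17 members whose model closes with a polyadenylation signal held 77.2% of all member counts, with a median member level of 0.284 RPKM and the highest at 31.7. Hist1h1c alone gave 13191 of these 16796 counts, and 13 of the 17 also carry the stem-loop. In Hist1h2bp, however, the stem-loop and the signal lie in different models. Another 18 members had a stem-loop, at most 60 bases of model after it and no signal. This is the form expected of a tail-less histone messenger RNA. They held 1.48% of the counts, with a median of 0.083 RPKM and the highest, Hist1h4n, at 0.56. Most of the 18 share over 50% of their 50-base stretches with other members, as Hist2h2aa1 (100%) and Hist1h4n (85.6%), and others fewer, as Hist2h2ac (38.6%). Among the 17 with a signal, Hist1h2bq (97.3%) and Hist1h2br (88.7%) alone share over 50%. Counts of such copies depend on how reads that fit several of them were assigned. The part of this in the levels was not tested. The 11 members with a stem-loop, a longer stretch of model after it and no signal held 3.66%, with a median of 0.294 RPKM, close to that of the members with a signal. Among these 11 the listed length equals the M21 model in Hist2h3c2 and Hist1h3e alone. In the others it is shorter, as in Hist1h1d (744 against 7425 bases) and Hist1h2ac (476 against 2482 bases). Their values therefore do not cover the whole stretch that defines the group. The listed length also differs from the model in part of the members with a signal, as in Hist1h2ae (460 against 704 bases). Both points limit the comparison between these groups. The 12 members whose model stops at the stop codon, so that the 3′ end cannot be read from it, held 1.78%.

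Of the 8 members with the most counts, 6 have a model with the signal at its end. The exceptions were Hist1h2bc and Hist1h1d. The Hist1h2bc model is spliced, with 2 exons and 742 bases after the stop codon, and contains neither the exact stem-loop nor a signal in its last 40 bases; its listed length of 736 bases differs from the 1156 bases of the M21 model, so its RPKM rests on another gene model than the one examined here. The authors' listed lengths equalled an M21 transcript in 42 members and differed in 22. A longer listed model also collects more reads at equal level, so counts favour members whose listed length takes in an extended 3′ end, while RPKM is divided by the listed length.

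**Figure D1:**
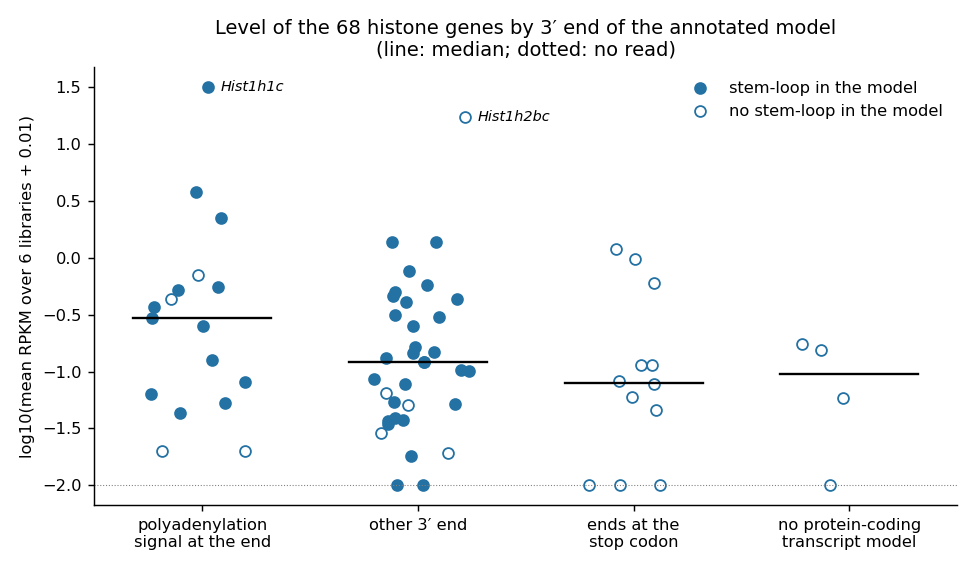
Mean level of each of the 68 histone genes over the 6 libraries, as log10(RPKM + 0.01), by the 3′ end of its annotated transcript model; filled points have a stem-loop in the model, lines are group medians and points on the dotted line had no read. Hist1h1c (31.7 RPKM) and Hist1h2bc (17.1 RPKM) stand above all other members, and members with and without an end signal overlap widely below them.

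H2A and H2B genes commonly stand head to head and share the space between their starts. There were 12 such pairs, with starts 235 to 305 bases apart, and in 11 the H2B gene had more counts, while in 1 (Hist1h2ba and Hist1h2aa) both were at 0. Per length the H2B gene was higher in 10 pairs and the H2A gene in 1, Hist1h2ap with 3 counts against 6 for Hist1h2br. Hist1h2bc had 3339 counts against 36 for Hist1h2ac, 92.8 times as many, or 58.1 times per length. Hist1h2bg had 169 against 4 for Hist1h2ae, 42.3 times as many, and Hist2h2be had 507 against 31 for Hist2h2ac, 16.4 times as many but 2.89 times per length. In 8 of the 12 pairs both partners had at most 16 counts, where the difference rests on few reads.

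**Figure D2:**
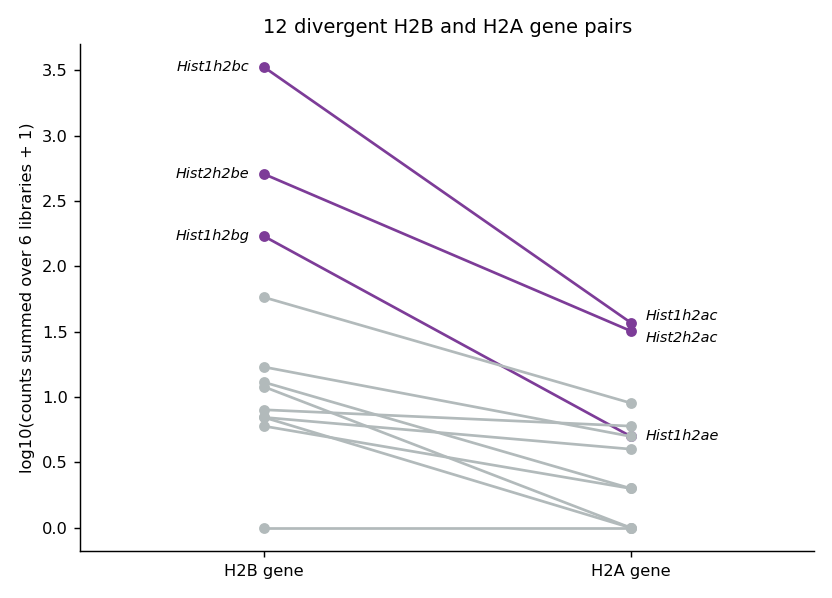
Counts summed over the 6 libraries, as log10(count + 1), of the H2B gene and the H2A gene of 12 divergent pairs; each line joins the 2 genes of a pair. Hist1h2bc, Hist2h2be and Hist1h2bg, drawn in purple, exceed 100 counts, and no H2A partner does.

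The promoter of Hist1h2ac (RefSeq, GRCm38.p6, chr13:23683910-23684209, minus strand) covers the whole space to the start of Hist1h2bc, 274 bases away, and reaches into both genes; it is printed because one stretch serves both the high H2B gene and its low H2A partner. Capitals mark an octamer, CCAAT boxes and a TATA box.
Hist1h2ac: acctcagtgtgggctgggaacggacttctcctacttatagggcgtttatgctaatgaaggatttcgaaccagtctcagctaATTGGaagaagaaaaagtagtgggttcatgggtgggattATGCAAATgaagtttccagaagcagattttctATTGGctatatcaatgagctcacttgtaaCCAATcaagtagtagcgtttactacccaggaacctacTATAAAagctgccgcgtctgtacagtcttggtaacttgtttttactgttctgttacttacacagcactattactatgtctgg
Motifs were searched on both strands in windows of 250 bases before to 50 after the start, and no 2 different motifs overlapped in any of the members' promoters. The octamer ATTTGCAT, bound by the POU factor Oct1 in H2B promoters, was present in 7 of 16 H2B and 7 of 16 H2A members with a RefSeq promoter and in none of the H1, H3 or H4 members, against 1.97% of all 27025 genes with a promoter. The windows of head-to-head partners overlap, so the H2A and H2B numbers are not independent. The same octamer was counted for both partners in Hist1h2ae and Hist1h2bg, Hist1h2ah and Hist1h2bk, and Hist1h2aa and Hist1h2ba. CCAAT was in 51 of 60 members (85.0%) and in 41.1% of all genes, and was carried by every H1, H2A, H2B and H3 member but by 3 of 12 H4 members. TATAAA was in 34 of 60 (56.7%) and in 15.7% of all genes. AAACACA, the box known from linker histone promoters, was in 5 of 6 H1 members and in 8.22% of all genes. It was also in 2 of 16 H2A and 2 of 16 H2B members (12.5% each), and in none of the H3 or H4 members. A match describes letters in a window and does not show binding.

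Hist1h1c, the highest member, has both that linker histone box and a CCAAT box in its RefSeq promoter (GRCm38.p6, chr13:23738557-23738856, plus strand), printed because this gene carries most of the member counts.
Hist1h1c: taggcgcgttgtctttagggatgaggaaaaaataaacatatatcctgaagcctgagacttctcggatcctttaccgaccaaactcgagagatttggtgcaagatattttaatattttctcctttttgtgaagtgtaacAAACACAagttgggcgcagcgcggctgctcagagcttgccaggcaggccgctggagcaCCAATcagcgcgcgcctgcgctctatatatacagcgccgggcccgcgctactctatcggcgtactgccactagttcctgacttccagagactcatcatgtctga
Capitals mark the AAACACA box and the CCAAT box.

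The libraries themselves bear on the comparison of genotypes. Kcnj9 had 0 counts in all 6 libraries, so its level does not check the genotype labels. All mice are labelled male, but Girk3-null replicate 1 alone held Y-linked counts (16088 over 4 genes, with 19 Xist counts), while the other 5 libraries had between 67346 and 144825 Xist counts and at most 7 Y-linked counts. The 9 chondrocyte markers summed to 68401 to 114419 CPM in Girk3-null libraries and 43994 to 76975 CPM in WT libraries, and the 6 osteoblast markers to 11856 to 23183 CPM in Girk3-null and 10110 to 13088 CPM in WT libraries. The 8 endothelial markers summed to 22.5 to 83.3 CPM in Girk3-null libraries and 106.0 to 184.7 CPM in WT libraries, and the 8 skeletal muscle markers to 10.6 to 24.6 CPM in Girk3-null and 26.4 to 62.7 CPM in WT libraries. The 11 erythroid markers found summed to 56.5 to 160.7 CPM in Girk3-null libraries and 79.1 to 279.7 CPM in WT libraries, and the 8 leukocyte markers to 67.9 to 110.5 CPM in Girk3-null and 81.5 to 122.5 CPM in WT libraries. Per length, the chondrocyte markers summed above the osteoblast markers in 5 of the 6 libraries; in Girk3-null replicate 1 they summed to 11502 RPKM and the osteoblast markers to 12852 RPKM. The same library had the highest osteoblast sum (23183 CPM) and the lowest endothelial sum (22.5 CPM) of all 6, and the lowest chondrocyte sum of its genotype. The endothelial and muscle sums were lower in every Girk3-null library than in any WT library, without a single marker past the adjusted threshold. The lists had 0 markers without any count. The part of sex, cell makeup or any 1 library in the histone values was not tested, and the member sums, the list medians and, in the plot of fold changes, the 13 tested members are also given without Girk3-null replicate 1.

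The summed level of the 68 members did not separate the genotypes. It was 53.5, 91.6 and 115.6 CPM in Girk3-null libraries (86.9 ± 31.4, SD, n = 3) and 63.9, 76.4 and 90.9 CPM in WT libraries (77.1 ± 13.5, SD, n = 3), a log2 ratio of 0.17. Girk3-null libraries held both the lowest and the highest value, and the WT range lay inside theirs. Without Girk3-null replicate 1 the log2 ratio was 0.43.

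Class by class, H1 summed to 33.9, 58.2 and 77.0 CPM in Girk3-null libraries and 38.3, 49.0 and 56.9 CPM in WT libraries (log2 ratio 0.23, and 0.49 without Girk3-null replicate 1). The H2A, H2B and H4 sums had log2 ratios of 0.15, 0.06 and 0.22 with overlapping groups, and of 0.18, 0.32 and 0.54 without replicate 1. The H3 sum was 0.456, 1.51 and 1.43 CPM in Girk3-null libraries and 1.57, 1.62 and 2.12 CPM in WT libraries (log2 ratio -0.64, and -0.26 without replicate 1). The H3 groups did not overlap in CPM, but this rests on 1 gene: Hist2h3c1 has 267 of the 388 H3 counts. Without it, a check chosen after seeing the data, the other 11 H3 genes summed to 0.118, 0.642 and 0.842 CPM in Girk3-null libraries and 0.339, 0.386 and 0.537 CPM in WT libraries, which overlap, with the log2 ratio turned to 0.34. The H3 sums also overlapped in RPKM, with 0.357, 1.59 and 1.74 in Girk3-null libraries and 1.27, 1.28 and 1.62 in WT libraries.

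**Figure D3:**
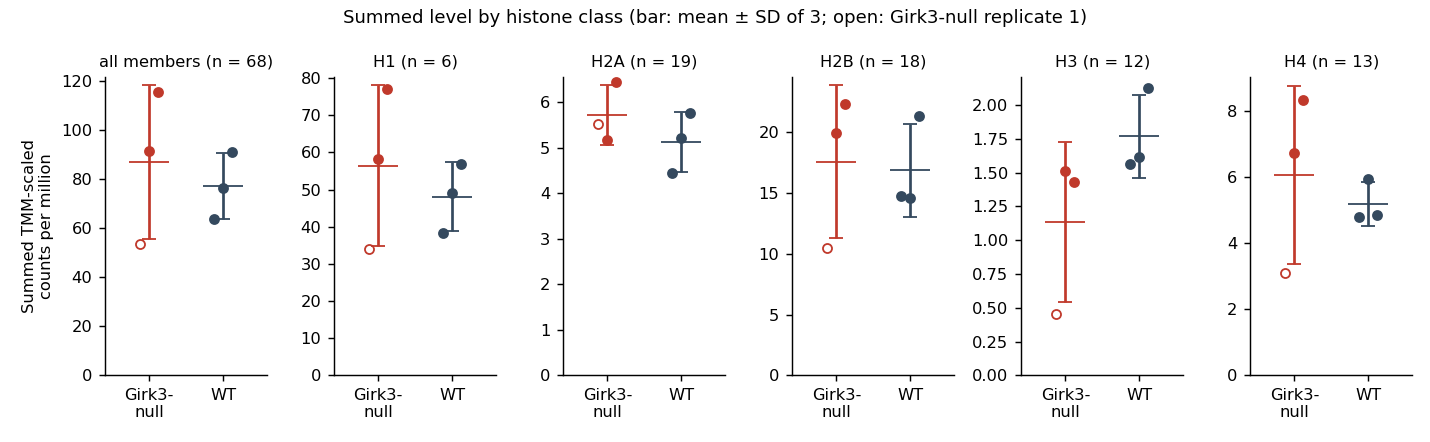
Summed TMM-scaled CPM of all 68 members and of each histone class, in Girk3-null (left of each panel) and WT (right) libraries; points are libraries, bars are mean ± SD of 3, and open points are Girk3-null replicate 1. The H3 groups do not overlap, the Girk3-null libraries lying between 0.456 and 1.51 and the WT libraries between 1.57 and 2.12, which rests on Hist2h3c1: without it the H3 groups overlap and the log2 ratio is 0.34.

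Gene by gene, 13 of the 68 members had enough counts to be tested, and these hold 95.3% of the member counts. With edgeR's quasi-likelihood test and Benjamini-Hochberg adjustment over all 17554 genes tested, 0 of the 13 passed an adjusted p of 0.05, where 1 gene of the whole table did (0.0057%). At an unadjusted p under 0.05, 1 of the 13 was past the threshold, against 14.5% of all genes tested. DESeq2 called 0 of the 11 members to which it gave an adjusted p (Hist1h4k and Hist1h1e had none), with 340 of 15171 genes called in the table (2.24%). The median log2 fold change of the 13 was 0.06, with 9 above and 4 below 0, and that of all genes tested was 0.01. The other 55 members held 1029 counts together and were left out by the filter on low counts.

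Among the linker histones, Hist1h1c had 32.7, 55.3 and 73.7 CPM in Girk3-null libraries and 36.2, 47.0 and 53.9 CPM in WT libraries. The groups overlapped, with 2 Girk3-null libraries above every WT library and 1 below every WT library; the log2 fold change was 0.24 (SE 0.27, edgeR adjusted p = 0.691), with a 95% interval from -0.38 to 0.86. Hist1h1d had 0.371, 1.47 and 1.31 CPM in Girk3-null libraries and 1.02, 0.791 and 1.17 CPM in WT libraries. Hist1h1e had 0.253, 0.825 and 0.842 CPM in Girk3-null libraries and 0.360, 0.589 and 0.537 CPM in WT libraries. Both showed the same arrangement, with Girk3-null replicate 1 below all WT libraries and the other two Girk3-null libraries above them. Hist1h1b had 0.456, 0.573 and 1.12 CPM in Girk3-null libraries and 0.614, 0.460 and 1.15 CPM in WT libraries, which overlapped (log2 fold change -0.06, SE 0.49).

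Among the core histones, the groups of the 3 genes with the most counts overlapped. Hist1h2bc had 7.51, 13.9 and 17.1 CPM in Girk3-null libraries and 10.8, 9.99 and 16.7 CPM in WT libraries (log2 fold change 0.04, 95% interval -0.67 to 0.74). Hist3h2a had the least spread, with 5.13, 4.61 and 5.33 CPM in Girk3-null libraries and 4.04, 4.67 and 5.03 CPM in WT libraries (log2 fold change 0.13, 95% interval -0.27 to 0.54). It lies within the listed span of Trim17 on the same strand, so reads there may be shared between the 2 genes. Hist1h4i had 1.45, 3.00 and 3.30 CPM in Girk3-null libraries and 2.65, 3.66 and 2.24 CPM in WT libraries, with wide overlap. For 5 of the 13 members the 95% interval lay within 1 log2 unit of no change on both sides: Hist1h1c, Hist1h2bc, Hist3h2a, Hist1h4i and Hist2h2be. For the others, a change of 2-fold or more in at least one direction lies inside the interval.

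The lower H2B and H4 members varied more. Hist2h2be had 1.67, 1.95 and 1.90 CPM in Girk3-null libraries and 1.74, 2.15 and 1.54 CPM in WT libraries. Hist1h2be had 0.422, 1.01 and 1.28 CPM in Girk3-null libraries and 1.12, 1.10 and 1.32 CPM in WT libraries, and it shares 320 bases with the pseudogene Gm11398 on the same strand. Hist1h2bg had 0.253, 0.963 and 1.18 CPM in Girk3-null libraries and 0.487, 0.497 and 0.586 CPM in WT libraries. In Hist1h2bg, an H2B gene whose WT libraries lie close together, the Girk3-null libraries fell on both sides of them (log2 fold change 0.58, SE 0.54). Hist2h4, an H4 gene, had 0.540, 1.26 and 1.22 CPM in Girk3-null libraries and 0.720, 0.828 and 0.488 CPM in WT libraries (log2 fold change 0.54, SE 0.42, edgeR adjusted p = 0.538). Hist1h4k, also an H4 gene, had 0.135, 0.367 and 0.779 CPM in Girk3-null libraries and 0.360, 0.129 and 0.488 CPM in WT libraries. Hist1h4k shares 71.5% of its 50-base stretches with other members, so its counts depend on how reads that fit several copies were assigned.

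Hist2h3c1, an H3 gene of the Hist2 cluster, was the single tested member whose groups did not overlap, where 10.2% of all genes tested had every Girk3-null library below every WT library and 9.86% had the reverse. It had 0.338, 0.871 and 0.592 CPM in Girk3-null libraries and 1.23, 1.23 and 1.59 CPM in WT libraries, from 20, 38 and 19 counts in Girk3-null and 58, 67 and 65 counts in WT libraries. The log2 fold change was -1.18 (SE 0.39, edgeR adjusted p = 0.291), which does not pass the threshold. All of the gene's 1820 bases lie inside the longer gene Gm20634 on the same strand, which had 0.489, 1.15 and 1.09 CPM in Girk3-null libraries and 1.40, 1.53 and 2.0 CPM in WT libraries (log2 fold change -0.87, SE 0.37, edgeR adjusted p = 0.341). In the shared bases the source of a read is ambiguous. Its copy Hist2h3c2 was too low to test, with 2, 5 and 1 counts in Girk3-null and 7, 9 and 10 counts in WT libraries.

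**Figure D4:**
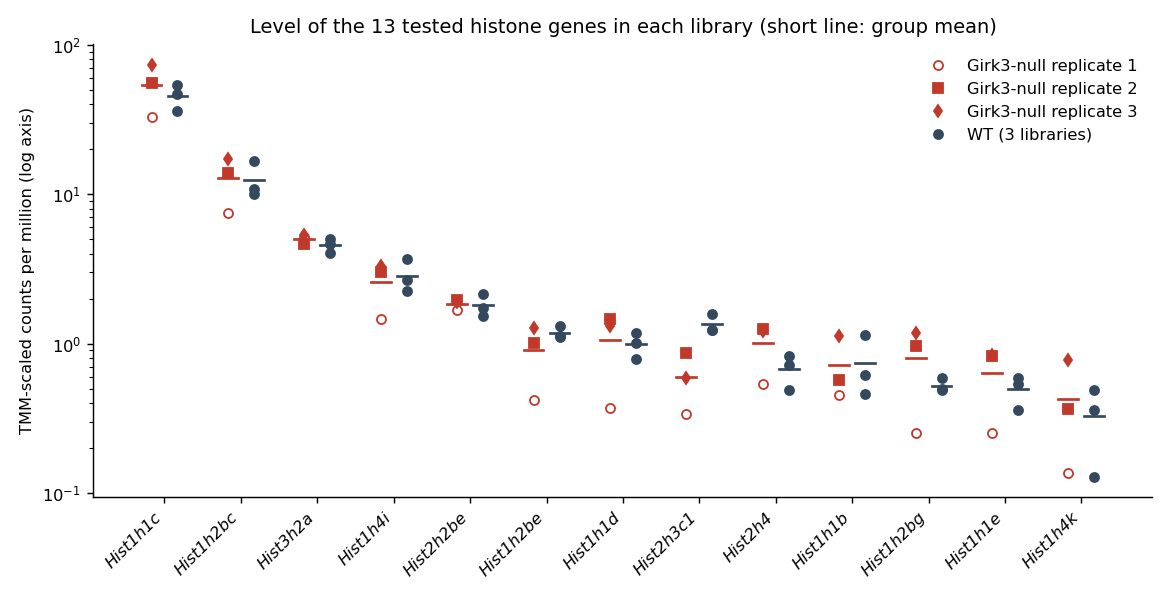
TMM-scaled CPM (log axis) of the 13 tested members in each library, Girk3-null in red on the left and WT in dark grey on the right; short lines are group means. Girk3-null replicate 1, drawn open, is the lowest library in 9 of the 13 genes (the share over all genes is not given), and Hist2h3c1 is the single gene whose groups do not overlap.

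Girk3-null replicate 1, the library with the highest osteoblast and lowest endothelial marker sums and the only one with Y-linked counts, was the lowest of the 6 libraries in 9 of the 13 tested members and the highest in 0, and Girk3-null replicate 3 was the highest in 6. The part of these differences in its histone levels was not tested. The share of all genes tested that were lowest in replicate 1 is not given here, so 9 of 13 cannot be read as particular to histone genes. Without replicate 1, 20 members had enough counts to be tested, 16 above and 4 below 0, with a median log2 fold change of 0.40 (0.31 over the 13). Members beyond the 13 could pass the filter on low counts through the remaining Girk3-null libraries alone, so the 0.40 and the counts over the 20 are tilted upward. None passed the adjusted threshold (smallest edgeR adjusted p = 0.512), nor did any gene of the table. At an unadjusted p under 0.05, 6 members were higher, where 4.93% of all 17980 genes were, and 1 was lower, where 4.77% were.

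The 6 were Hist1h2bn (log2 fold change 1.81), Hist1h4n (1.69), Hist1h4d (1.41), Hist1h2bg (1.03), Hist2h4 (0.86) and Hist1h1c (0.50), and the lower one was Hist2h3c1 (-0.86). Hist1h2bn, an H2B gene, had 2, 22 and 14 counts in Girk3-null and 4, 9 and 6 counts in WT libraries. Hist1h4n, an H4 gene, had 5, 20 and 16 counts in Girk3-null and 5, 10 and 6 counts in WT libraries. In both, 2 Girk3-null libraries exceeded all WT libraries and replicate 1 did not, and both share most of their sequence with other members (86.4% and 85.6% of 50-base stretches). Naming these genes used the libraries that remain, and leaving 1 library out was prompted by its values. Hist1h2bn, Hist1h4n and Hist1h4d were not among the members tested with all 6 libraries. Hist1h2bn and Hist1h4n passed the filter on low counts only through the 2 remaining Girk3-null libraries, where their counts were high. Their fold changes and their place among the 6 are therefore no support for a difference.

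**Figure D5:**
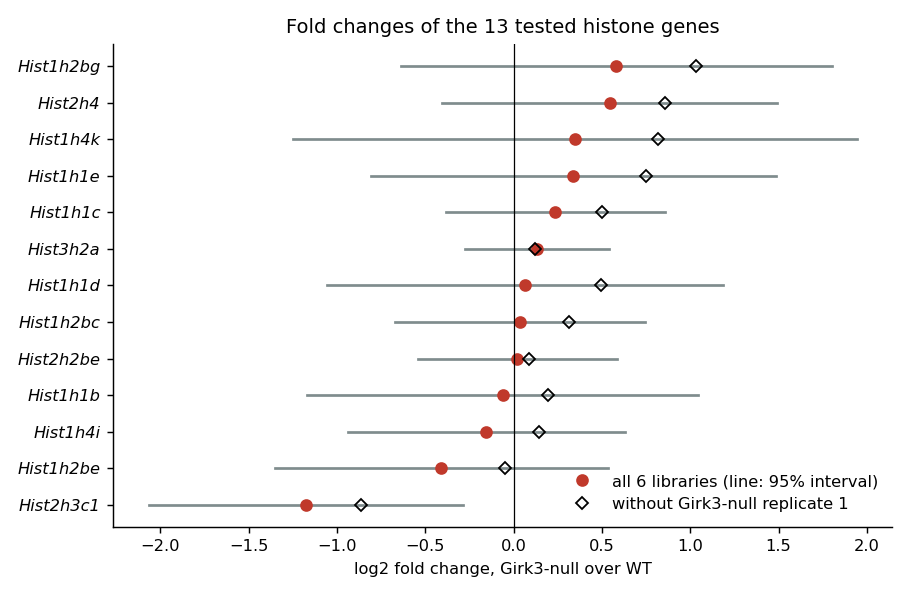
Log2 fold change, Girk3-null over WT, of the 13 tested members from all 6 libraries (red, with the 95% interval) and without Girk3-null replicate 1 (open diamonds). The interval excludes 0 for Hist2h3c1 alone, whose adjusted p is 0.291.

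Near-identical copies limit what single members can show. Of the 66 members with an M21 model, 31 share more than 50% of their 50-base stretches with another member, and these hold 2.17% of the member counts; 7 share none. Of the 5 members with the most counts, Hist1h1c shares 8.5% with other members, Hist1h2bc 29.4%, Hist3h2a 2.0%, Hist1h4i 28.9% and Hist2h2be 0%. Against the transcripts of all other genes the shares were 8.5%, 30.6%, 31.5%, 28.9% and 0%, in the same order.

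The histone variants that are made outside S phase come mostly from ordinary polyadenylated messenger RNA, and for H3 they stood far above the clustered genes in RPKM of this poly(A)-selected RNA. H3f3b, which encodes the replacement histone H3.3, averaged 134.8 ± 32.4 RPKM in Girk3-null and 170.3 ± 33.3 RPKM in WT libraries (SD, n = 3 each), where the 12 clustered H3 genes together summed to 1.23 ± 0.76 RPKM in Girk3-null and 1.39 ± 0.20 RPKM in WT libraries. H3f3a, the other H3.3 gene, averaged 33.9 ± 0.93 RPKM in Girk3-null and 35.5 ± 5.8 RPKM in WT libraries. H2afz, for the variant H2A.Z, averaged 30.5 ± 3.4 RPKM in Girk3-null and 32.2 ± 4.6 RPKM in WT libraries, and H2afx, for the damage-responsive H2A.X, 5.18 ± 0.80 RPKM in Girk3-null and 6.48 ± 0.39 RPKM in WT libraries. Of the 11 variant genes, all tested, none passed the adjusted threshold and their median log2 fold change was 0.05 (0.04 without Girk3-null replicate 1). H2afz was thus near the mean level of Hist1h1c (31.7 RPKM), and H2afx below it and below Hist1h2bc (17.1 RPKM). These values do not cover any tail-less messenger RNA in full, for H2afx as for the clustered genes. The smallest p belonged to Cenpa, the centromeric H3, with 5.23 ± 0.47 RPKM in Girk3-null and 7.16 ± 1.18 RPKM in WT libraries (log2 fold change -0.34, SE 0.14, edgeR adjusted p = 0.327). H2afy2 and H2afy, which encode the macroH2A proteins, had log2 fold changes of 0.36 and 0.20, and H2afj had 0.34.

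The genes that transcribe, process or degrade histone messenger RNA were measured more deeply than the histone genes, and none of the 19 passed the adjusted threshold. Their median log2 fold change was -0.08 (-0.11 without Girk3-null replicate 1), with 13 below and 6 above 0, and 4 had an unadjusted p under 0.05, all below 0. Slbp, whose product binds the stem-loops printed above, had 6.69, 8.29 and 7.73 RPKM in Girk3-null libraries and 11.2, 11.1 and 9.29 RPKM in WT libraries (log2 fold change -0.37, SE 0.12, edgeR adjusted p = 0.291). Npat, the coactivator of histone gene transcription, had 6.20, 6.26 and 6.79 RPKM in Girk3-null libraries and 9.15, 9.72 and 7.44 RPKM in WT libraries (log2 fold change -0.34, SE 0.11, edgeR adjusted p = 0.291). Casp8ap2, which takes part in histone gene expression with Npat, and Eri1, an exonuclease that acts on the histone stem-loop, had log2 fold changes of -0.52 and -0.32. Over the whole list, 6 of 19 genes (31.6%) had every Girk3-null library below every WT library in CPM and 0 had the reverse, beside 10.2% and 9.86% of all genes tested.

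Histone chaperones and importers and the genes of DNA replication lay further below 0, again with none past the adjusted threshold. Of 21 chaperone and importer genes, 17 were below 0, with a median log2 fold change of -0.19 (-0.18 without Girk3-null replicate 1). Hat1, which acetylates new H4, had -0.48, Nasp, a chaperone of H3 and H4, -0.60, Atrx, part of an H3.3 deposition complex, -0.29, and Nap1l1, a chaperone of H2A and H2B, -0.31. Of 27 genes of DNA replication in S phase, 26 were below 0, as were 8456 of all 17554 genes tested. Their median was -0.40 (-0.32 without Girk3-null replicate 1), and 15 had an unadjusted edgeR p under 0.05 in that direction, as had 7.02% of all genes tested. Summed, the list had 435.5, 507.9 and 486.7 CPM in Girk3-null libraries and 653.7, 734.0 and 512.6 CPM in WT libraries, so WT replicate 3 lay close to the Girk3-null libraries. Ccna2, which encodes cyclin A, had 2.52, 2.51 and 2.45 RPKM in Girk3-null libraries and 6.55, 7.03 and 3.11 RPKM in WT libraries (log2 fold change -1.03, SE 0.25, edgeR adjusted p = 0.291). Mcm6, a subunit of the replicative helicase, had a log2 fold change of -0.59, Rrm2, a subunit of ribonucleotide reductase, -0.55, and Pole, the catalytic subunit of a replicative polymerase, -0.69. These genes run in S phase with the clustered histone genes, whose 13 tested members had a median of 0.06 in the same libraries. The histone counts, however, report polyadenylated forms and carry-over of tail-less RNA, so they do not measure the histone messenger RNA of S phase. The difference between the lists was not tested.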

How the data were processed

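Per the labels, poly(A) RNA of each sample was selected with oligo dT and sequenced on an Illumina instrument. Per the submitters' processing notes, bcl2fastq 2.19.0 and STAR 2.5.2b were used with mm10; the counting tool, its strand setting and its treatment of reads that fit several copies are not named there. The authors deposited 1 table with raw counts and RPKM per gene and library, and listed gene lengths.

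Libraries of a genotype are biological replicates per the series text. Counts of the whole table were fitted with edgeR 4.0.16 (R 4.3.3): genes kept by filterByExpr (minimum count 10, minimum total 15), TMM scaling, genotype as the only term, quasi-likelihood F-test, Benjamini-Hochberg adjustment over 17554 genes, threshold 0.05. Levels between genes use the deposited RPKM, and levels between libraries TMM-scaled CPM. Alternatives used DESeq2 1.42.0 and limma 3.58.1. The fit was checked on simulated counts. Stem-loops, end signals and shared 50-base stretches were read from GENCODE M21 transcripts, and promoters from RefSeq, matched by name, position and strand for 60 members.

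Values per library are given for the 12 members highest by mean RPKM, the 8 smallest p-values among tested members and all linker histone genes; of each list the genes with the 4 smallest p-values are named, plus Slbp, Npat, H2afz, H3f3a, H3f3b and H2afx; further members named for their 3′ ends, pairs or counts of 0 were chosen after their values were seen. Members and lists were chosen with earlier results of these data known.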

Additional observations from a re-analysis of the deposited data

How the results depend on the processing

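No member passed an adjusted p of 0.05 in the main analysis or in any of 14 alternative settings (adjusted p from 0.133 to 0.996 over 174 values; DESeq2 gave Hist1h4k and Hist1h1e none), although DESeq2 called 340 genes of the table and edgeR 1. Of 176 fold changes 35 changed sign, none of them past the threshold in any setting; the cause was not tested. With library totals alone, where the median of all genes was -0.09, Hist2h2be was at -0.10, Hist1h1d at -0.043 and Hist1h2bc at -0.064. With the title number (below or above 200) as a covariate, Hist1h4k was at -0.24, Hist1h1d at -0.47, Hist1h1e at -0.10, Hist1h2bc at -0.29 and Hist1h1c at -0.044. With limma-voom, Hist1h1d was at -0.23 and Hist1h2bc at -0.054. On log2(RPKM + 0.1), Hist2h2be was at -0.065, Hist1h1d at -0.20 and Hist1h2bc at -0.11, and on log2(RPKM + 1) they were at -0.034, -0.071 and -0.10, with medians of all genes of -0.09 and -0.05. Leaving out 1 library at a time, Hist2h2be ran from -0.081 to 0.16, Hist1h4k from -0.39 to 0.82, Hist1h1b from -0.52 to 0.39, Hist1h4i from -0.37 to 0.14, Hist1h1d from -0.28 to 0.49, Hist1h2bc from -0.22 to 0.31 and Hist1h1c from -0.055 to 0.50. Hist2h3c1 ran from -1.57 to -0.86. The median over tested members ran from -0.13 (without Girk3-null replicate 3) to 0.31 (without replicate 1) and was -0.24 with the title number covariate, and the log2 ratio of the summed level from -0.09 to 0.43 over the same libraries. That ratio was 0.06 with library totals, 0.07 without Hist1h1c and 0.08 from RPKM. Allowing 1 mismatch in the stem left 42 members with a stem-loop, 1 mismatch anywhere, a setting chosen after seeing the data, gave 44, and stretches of 100 bases gave 24 members over 50% shared. No paired analysis was possible because the labels give no replicate numbers shared between genotypes. The filter on low counts left out 55 of 68 members; with no filter 62 were fitted, and none was called.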
